A study of Mus musculus with 10 samples.

Results

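The genes described here are 40 interferon-stimulated antiviral effector genes, measured by RNA-seq in tumour-associated macrophages. They were taken by symbol from a list, and all 40 were found among the 46956 loci that carry a symbol. Every one reached 10 counts in at least 1 sample and passed the filter on low counts. The least abundant value of any of them in any sample was 67 fragments and the most abundant was 7287.

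The macrophages came from BALB/cJ mice bearing 4T1 tumours, a mouse mammary carcinoma line, grown in the mammary fat pad. One group received JHU083, a prodrug of the glutamine antagonist 6-diazo-5-oxo-L-norleucine, at 1 mg/kg on days 7 to 13 (n = 5). The other group received the vehicle, PBS (n = 5). In both groups tumours were harvested on day 14, and live cells positive for CD45, CD11b and F4/80 and negative for CD8, Ly6C and Ly6G were sorted. The labels used here give no age for the mice and do not say whether each sample came from a separate animal. The p-values therefore measure the spread between these samples, which may be technical in part.

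Interferon-stimulated genes are switched on when type I, II or III interferons bind their receptors, JAK kinases are activated, and STAT proteins with IRF9 bind the interferon-stimulated response element (ISRE) in promoters. A different element, the gamma-activated site (GAS), serves the response to interferon gamma. The products sense foreign RNA, degrade it, block its translation, trap virions or tune the response, and many of them are also expressed at a basal level in macrophages without infection.

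Promoter sequence was examined in 300-base windows from RefSeq (GRCm38.p6), from 250 bases before to 50 bases after an annotated start site. A window was given for 30 of the 40 genes. The ISRE core was searched as GAAANNGAAA on either strand and the GAS as TTCNNNGAA. The ISRE core was present in 14 of the 30 genes (46.7%), against 3.99% of 27025 genes with a window. The GAS was present in 7 (23.3%), against 9.55% of genes, and the 2 motifs overlapped in 1 window, that of Bst2. Both are descriptions of these windows and not evidence of binding. The promoters of 6 genes are printed below as the 200 bases before the start site, 5′ to 3′ on the coding strand, with the half-sites of each ISRE core in capitals. They were chosen to set 3 genes that were lower in JHU083 (Isg15, Bst2, Oas3) beside 2 that were not called (Ifit1, Ifit3) and the 1 that was higher (Slfn5).
Isg15, chr4:156200819-156201018, minus strand: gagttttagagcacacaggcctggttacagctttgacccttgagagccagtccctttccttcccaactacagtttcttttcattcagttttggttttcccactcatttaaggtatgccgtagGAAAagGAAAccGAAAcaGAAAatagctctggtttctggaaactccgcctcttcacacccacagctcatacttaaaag
Bst2, chr8:71537473-71537672, minus strand: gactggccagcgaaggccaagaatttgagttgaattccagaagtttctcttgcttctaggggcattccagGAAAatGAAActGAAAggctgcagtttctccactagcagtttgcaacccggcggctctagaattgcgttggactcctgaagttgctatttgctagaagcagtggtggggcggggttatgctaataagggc
Oas3, chr5:120777660-120777859, minus strand: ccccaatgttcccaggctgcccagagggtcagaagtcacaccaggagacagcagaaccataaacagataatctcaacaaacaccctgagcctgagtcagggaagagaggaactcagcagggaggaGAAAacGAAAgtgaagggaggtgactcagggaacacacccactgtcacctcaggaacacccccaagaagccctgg
Ifit1, chr19:34640689-34640888, plus strand: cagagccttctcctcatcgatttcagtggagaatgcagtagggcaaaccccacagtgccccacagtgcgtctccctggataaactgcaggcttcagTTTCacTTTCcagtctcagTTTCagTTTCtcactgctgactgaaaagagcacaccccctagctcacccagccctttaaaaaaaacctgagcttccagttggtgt
Ifit3, chr19:34583329-34583528, plus strand: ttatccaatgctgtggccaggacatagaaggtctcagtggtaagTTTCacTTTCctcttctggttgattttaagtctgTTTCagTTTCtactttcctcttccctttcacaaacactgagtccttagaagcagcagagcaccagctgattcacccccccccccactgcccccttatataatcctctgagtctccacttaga
Slfn5, chr11:82951902-82952101, plus strand: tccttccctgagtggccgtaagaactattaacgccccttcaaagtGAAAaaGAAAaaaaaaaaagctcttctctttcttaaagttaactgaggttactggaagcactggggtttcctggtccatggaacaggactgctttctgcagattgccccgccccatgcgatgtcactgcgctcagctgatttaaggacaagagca
In Isg15 the cores formed an uninterrupted run of half-sites, starting 78, 72 and 66 bases before the start site. In Bst2 they started 130 and 124 bases before it, and in Oas3 the 1 core started 75 bases before it. Ifit1 held cores on the opposite strand at 104 and 85 bases and Ifit3 at 156 and 122 bases, so the letters read as TTTC there. The 1 core of Slfn5 started 155 bases before its start site. An ISRE core was found in 6 of 14 lower genes with a window and in 8 of 16 that were not called or were higher. The GAS was found in 5 of the 14 lower genes, in 2 of 15 that were not called and not in Slfn5, and neither split was tested.

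Many of these genes were lower in macrophages from mice given JHU083, by unequal amounts. By edgeR's quasi-likelihood test, with Benjamini-Hochberg adjustment over all 12500 loci tested, 20 of the 40 (50%) passed an adjusted p of 0.05 as lower in JHU083, against 18.3% of all loci. Slfn5 alone was higher (2.5% of the genes, against 18.4% of all loci). The other 19 were not called, with log2 fold changes from -0.33 to 0.23, of which 14 were negative and 5 positive. The median log2 fold change was -0.28, and that of all loci was 0.01. In 13 genes (32.5%) every JHU083 sample lay below every vehicle sample, as in 11.1% of all loci. In 0 genes did every JHU083 sample lie above every vehicle sample, as in 11.2% of all loci. Changes were moderate in size: 16 genes had a log2 fold change under -0.5 and 2 of them, Isg15 and Oas3, were under -1. With libraries scaled by their size only, 23 were lower and 1 higher, and over all loci 3141 were lower and 1564 higher in place of 2293 and 2296.

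**Figure D1:**
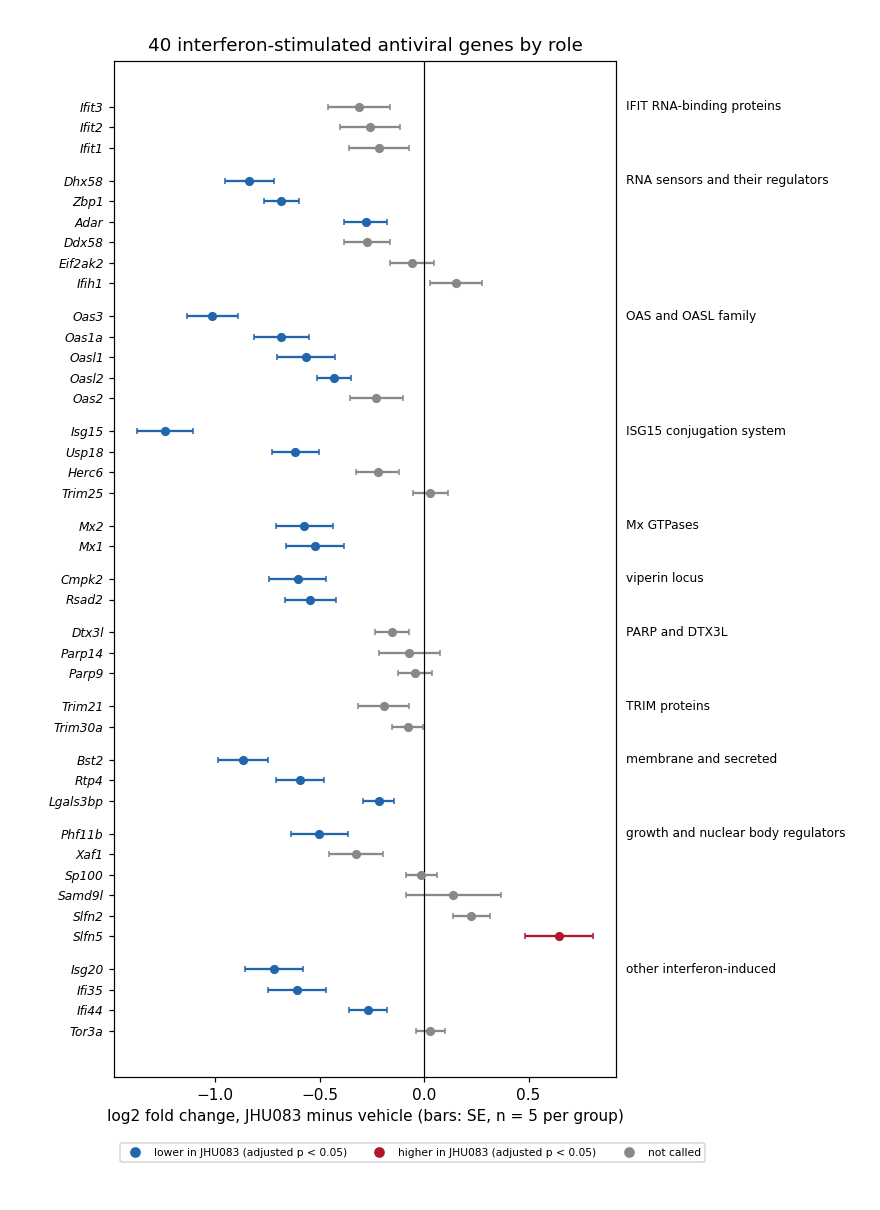
Log2 fold change of each gene (JHU083 minus vehicle, x axis) with its standard error, grouped by role (right) and coloured by the call at an edgeR adjusted p under 0.05. The values run from -1.24 for Isg15 to 0.65 for Slfn5, and the IFIT, PARP and TRIM groups hold no called gene.

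Depth ranged from 11147870 to 15740701 fragments per sample. The mitochondrial share of fragments moved with the treatment, at 1.53% to 2.09% in vehicle and 2.14% to 2.44% in JHU083, and its part in the changes of the 40 genes was not tested. All 9 macrophage markers were detected, with summed levels of 12805 to 16607 CPM (fragments scaled to a common library size) in vehicle and 15015 to 19385 CPM in JHU083 (adjusted exact p = 0.139). Of the 9, Adgre1, which encodes the sort marker F4/80, Csf1r and Mertk were called higher, by 0.63, 0.51 and 0.97 on the log2 scale, and 6 were not called. Of 12 lists of cell type markers, 7 differed in summed CPM at an adjusted exact permutation p under 0.05, and these are given because they moved with the treatment. All 9 mammary tumour epithelial genes were lower in JHU083, with sums of 289.8 to 617 CPM in vehicle and 99.8 to 205 CPM in JHU083 (adjusted exact p = 0.019). Endothelial genes went from 126 to 213 CPM in vehicle to 37.4 to 88.8 CPM (adjusted exact p = 0.019), with most of the sum in Pecam1, which was called lower, while Cdh5, Kdr and Vwf were not called and Cldn5 and Emcn had no more than 10 fragments. Fibroblast genes went from 106 to 234 CPM to 31.2 to 126 CPM (adjusted exact p = 0.0408), with 4 of 7 lower. NK cell genes, with Klra8 at 0 throughout, went from 14.7 to 19.2 CPM to 8.23 to 14.5 CPM (adjusted exact p = 0.019), with most of the sum in Klrb1c. Of these only Klrb1c and Gzmb could be tested singly, and neither was called (adjusted p = 0.0563 and 0.0557). Classical monocyte genes went the other way, from 5869 to 7278 CPM to 7686 to 9805 CPM, as did T cell genes, from 19.2 to 24.2 CPM to 31.2 to 49.4 CPM (adjusted exact p = 0.019 for both). Most of the T cell sum was Cd4, and Cd3d, Cd3e, Cd8a, Cd8b1 and Trac had at most 10 fragments. B cell genes averaged 3.16 and 4.31 CPM (adjusted exact p = 0.0408), with 5 of 6 at no more than 10 fragments. Plasmacytoid dendritic cell (98.1 and 115 CPM), conventional dendritic cell (42.4 and 31.4 CPM), neutrophil (47.0 and 33.6 CPM) and eosinophil genes (6.67 and 10.7 CPM) did not pass as sums. Within these lists S100a8 and S100a9 of neutrophils were called lower, at -1.40 and -2.18, and 3 other tested neutrophil genes were not called. Of dendritic cell genes Cd209a was called higher (2.09) and Fscn1 lower (-1.42), and of eosinophil genes Siglecf higher (0.89). The part of these cells in the changes of the 40 genes was not tested, and in sorted bulk samples fewer cells of a type and less RNA per cell cannot be told apart.

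In 3 vehicle samples and 2 JHU083 samples the loci Rn18s-rs5 and Gm42418 had the value 0, unlike in the others. The comparison was repeated within each set. Among the samples at 0, 9 of the 40 genes were lower and 0 higher by edgeR (24 and 1 at an unadjusted p under 0.05), with a median of -0.41, against 4.61% lower and 4.18% higher of all loci. Among the others 10 were lower and 1 was higher, with a median of -0.23, against 11.9% lower and 9.86% higher of all loci. Bst2, Dhx58, Isg15, Oas3, Usp18 and Zbp1 were lower in both. A test of whether the treatment difference itself depended on the set called 0 of 12439 loci by edgeR (356 at an unadjusted p under 0.05), and of the 40 genes Ifih1 had an unadjusted p of 0.0278.

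Values below are CPM on library sizes scaled by the TMM method, listed by replicate from 1 to 5, and fold changes are JHU083 over vehicle with the standard error (SE) of the log2 value. Isg15 encodes a ubiquitin-like protein that is conjugated to other proteins and is also secreted (XLOC_027629, chromosome 4, 156199424 to 156200818, GRCm38). Its level was 81.6, 67.3, 58.1, 66.8 and 93.6 CPM in vehicle and 34.0, 24.5, 35.3, 28.5 and 33.3 CPM in JHU083. The groups were far apart, with the highest JHU083 sample well below the lowest vehicle sample. Isg15 fell to 0.424 times its vehicle level, or by -1.24 ± 0.13 in log2 terms (SE, adjusted p = 1.6e-05), the largest decrease of the 40. Usp18 encodes the protease that removes ISG15 from its targets and also damps signalling at the type I interferon receptor. It ranged from 26.3 to 37.1 CPM in vehicle and from 17.9 to 23.0 CPM in JHU083 with no overlap, and fell by 0.62 on the log2 scale (adjusted p = 0.000759). The 2 ligases of the system were not called. Herc6, the main ISG15 ligase of the mouse, whose locus lists further symbols, had a log2 difference of -0.22 ± 0.10 (SE, adjusted p = 0.0971), and was called lower without JHU083 replicate 4 (adjusted p = 0.0388). Trim25, a ubiquitin and ISG15 ligase that acts on RIG-I, had 93.9, 105, 106, 98.5 and 95.6 CPM in vehicle and 114, 93.6, 89.1, 97.7 and 114 CPM in JHU083. The JHU083 samples lay on both sides of the vehicle range, 2 above it, 2 below it and 1 within it, with a log2 difference of 0.03 ± 0.08 (SE, adjusted p = 0.814), or -0.052 when scaled to library size only. Outside the list, the pathway has a dedicated activating enzyme, Uba7, and conjugating enzyme, Ube2l6. Ube2l6 fell by 0.58 on the log2 scale (adjusted p = 0.0032), while the locus that holds Uba7 together with Ip6k1 and other symbols rose by 0.28 (adjusted p = 0.01), a value that cannot be assigned to Uba7.

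The oligoadenylate synthetases, on meeting double-stranded RNA, make a short oligoadenylate that acts as a second messenger, and the OAS-like proteins are relatives that do not all keep this activity. Of the 5 genes of this family, 4 were lower and Oas2 was not called. Oas3 (XLOC_030354, chromosome 5, 120753098 to 120777661) had 33.3, 25.0, 23.2, 32.7 and 30.8 CPM in vehicle and 14.0, 12.7, 13.2, 14.7 and 17.2 CPM in JHU083. The JHU083 samples lay close together and below all vehicle samples, at 0.495 times the vehicle level (log2 fold change -1.01 ± 0.12, SE, adjusted p = 3.87e-05). Oas1a (XLOC_030359, chromosome 5, 120896256 to 120907521) had 150.3, 123, 108, 126 and 162 CPM in vehicle and 82.6, 69.6, 109.8, 79.5 and 75.0 CPM in JHU083. JHU083 replicate 3 reached into the vehicle range and the other 4 samples did not, and the log2 fold change was -0.68 ± 0.13 (SE, adjusted p = 0.00118). Oas1a has near-identical relatives, which makes its own count uncertain, and its relative Oas1g was lower, at -0.82 (adjusted p = 0.000466), while Oas1b and Oas1c were not called (0.11 and -0.15, adjusted p = 0.683 and 0.581). Oasl1 fell by 0.56 and Oasl2 by 0.43 on the log2 scale (adjusted p = 0.00616 and 0.00102). Oas2, which lies 3245 bases from Oas3 in the same cluster, ranged from 23.7 to 29.5 CPM in vehicle and from 16.6 to 29.0 CPM in JHU083. Its log2 fold change was -0.23 ± 0.13 (SE, adjusted p = 0.17), and an interval of 2 SE runs from -0.48 to 0.02. Without JHU083 replicate 5 Oas2 was called lower, at -0.33 (adjusted p = 0.0493).

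The proportion of Oas2 to Oas3 was compared directly, a pair singled out after the values were seen. The log2 ratio of Oas2 to Oas3 was -0.10 ± 0.19 in vehicle and 0.64 ± 0.24 in JHU083 (SD, n = 5), with no overlap between groups. The exact two-sided permutation test gave p = 0.00794, the smallest value 5 against 5 samples can give, and p = 0.0794 after adjustment over the 10 pairs of listed genes within 150000 bases of each other. In the other 9 pairs the adjusted exact p was 0.291 or more.

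**Figure D2:**
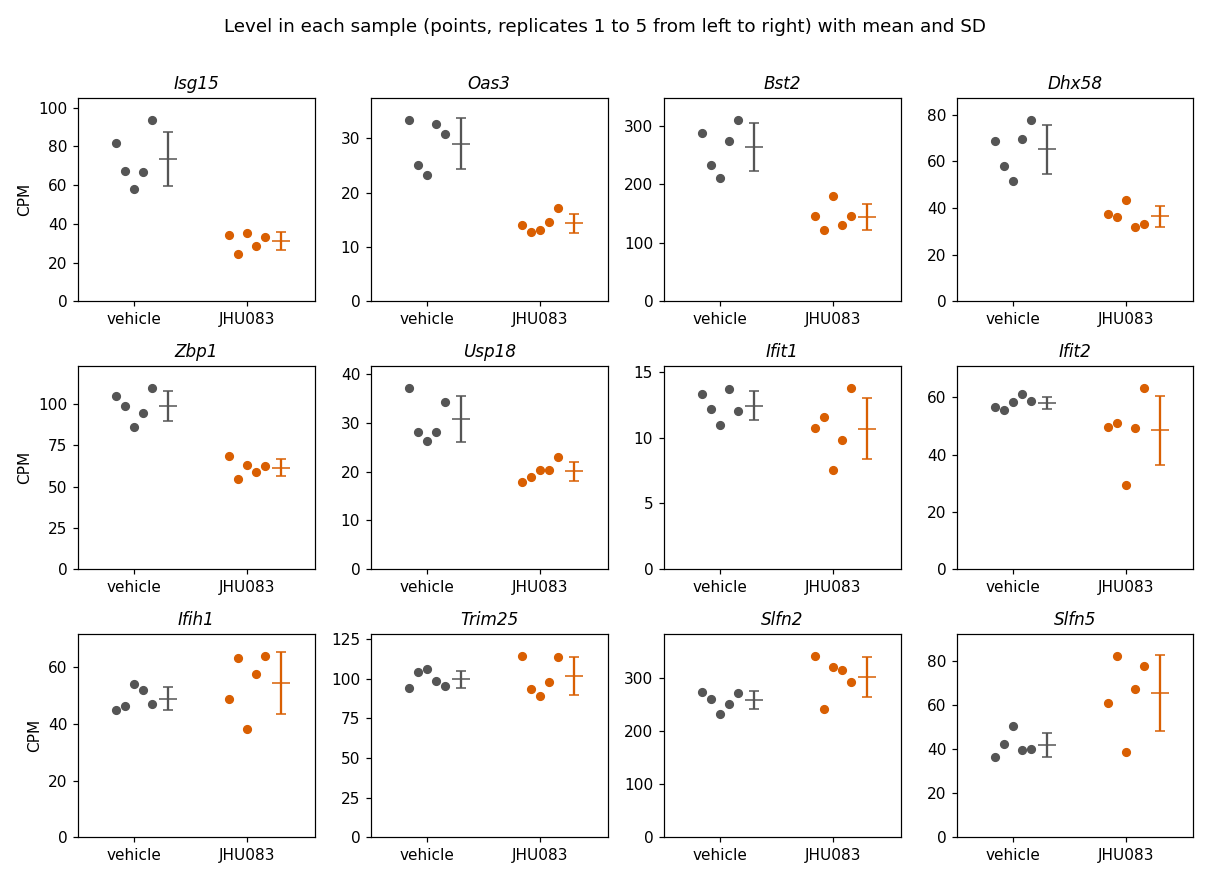
CPM of 12 genes in each sample (points, replicates 1 to 5 from left to right) with the group mean and SD beside them, each axis starting at 0. The 5 JHU083 samples lie below all vehicle samples for Isg15, Oas3, Bst2, Dhx58, Zbp1 and Usp18 and overlap with them for Ifit1, Ifit2, Ifih1, Trim25, Slfn2 and Slfn5.

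The RNA sensors divided. Zbp1, a sensor of Z-form nucleic acids that can start necroptosis (XLOC_021937, chromosome 2, 173206612 to 173218923), had 105, 98.9, 86.3, 94.7 and 109.7 CPM in vehicle. In JHU083 it had 68.5, 54.5, 63.0, 59.2 and 62.6 CPM, below every vehicle sample. Its log2 fold change was -0.68 ± 0.08 (SE, adjusted p = 4.35e-05), the same size as that of Oas1a with a smaller error. Dhx58, which encodes LGP2, the regulator of the other RIG-I-like receptors, ranged from 51.4 to 77.7 CPM in vehicle and from 31.7 to 43.5 CPM in JHU083. It fell by 0.84 on the log2 scale (adjusted p = 0.000117). The 2 signalling receptors of that family were not called. Ddx58, which encodes RIG-I, had a log2 difference of -0.27 ± 0.11 (SE, adjusted p = 0.0621), and was called lower without JHU083 replicate 2 (adjusted p = 0.0226). Ifih1, which encodes MDA5 (XLOC_020789, chromosome 2, 62595798 to 62646255), had 44.9, 46.4, 54.0, 52.1 and 47.1 CPM in vehicle and 48.9, 63.3, 38.0, 57.6 and 63.8 CPM in JHU083. JHU083 replicate 3 was the lowest of the 10 samples and 3 JHU083 samples were above all vehicle samples, and the log2 fold change was 0.15 ± 0.13 (SE, adjusted p = 0.358). Without JHU083 replicate 3 Ifih1 was called higher, at 0.26 (adjusted p = 0.0306). Adar, the editor that marks self RNA, was lower by a small amount (-0.28 ± 0.10, SE, adjusted p = 0.0449), a call that was lost 8 times when the 10 samples were left out in turn, held only without vehicle replicate 3 or JHU083 replicate 1 (adjusted p = 0.051 to 0.118 in the 8). Eif2ak2, the kinase PKR that stops translation, had a log2 difference of -0.06 ± 0.11 (SE, adjusted p = 0.703).

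Bst2, or tetherin, holds budding virions on the cell surface and was the most abundant of the 40 per length, at 419.7 ± 63.2 FPKM (fragments scaled to library size and transcript length) in vehicle and 231 ± 34.2 FPKM in JHU083 (SD, n = 5). The next in vehicle were Lgals3bp at 223, Slfn2 at 164 and Isg15 at 125 FPKM, and the lowest was Samd9l at 2.75 FPKM. Bst2 (XLOC_040118, chromosome 8, 71534255 to 71537456) had 288, 234, 210.1, 274 and 309.6 CPM in vehicle and 145, 121, 180.4, 129.7 and 145 CPM in JHU083. All JHU083 samples were below all vehicle samples, with a log2 difference of -0.87 ± 0.12 (SE, adjusted p = 0.000111). Rtp4, a chaperone of G protein-coupled receptors whose locus lists 1 further symbol, fell by 0.59 on the log2 scale (adjusted p = 0.00137), again with no overlap. Lgals3bp, a secreted glycoprotein that binds galectins, was lower by 0.22 ± 0.07 (SE, adjusted p = 0.0308) with overlapping groups. That call was lost in 5 of the fits without 1 sample, those without vehicle replicate 1, 4 or 5 or JHU083 replicate 1 or 4 (adjusted p = 0.0549 to 0.0855).

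Both Mx genes, a family of dynamin-like GTPases that trap viral nucleocapsids, were lower in RNA. Mx1 (XLOC_014871, chromosome 16, 97447035 to 97462907) had 35.7, 28.9, 22.7, 27.8 and 34.3 CPM in vehicle and 23.5, 20.6, 15.7, 19.7 and 24.3 CPM in JHU083. Only vehicle replicate 3 lay within the JHU083 range, and the log2 fold change was -0.52 ± 0.14 (SE, adjusted p = 0.00919). BALB/c mice carry a defective Mx1 allele, so the counts describe its RNA and not a working protein. Mx2, which GENCODE M21 annotates as a polymorphic pseudogene, fell by 0.57 on the log2 scale (adjusted p = 0.00488) with no overlap. Rsad2 and Cmpk2 are neighbours on chromosome 12 that encode viperin, which makes a chain-terminating nucleotide, and the kinase that supplies its substrate. Rsad2 (XLOC_008537, 26442746 to 26456452) had 43.6, 46.5, 45.5, 43.0 and 49.2 CPM in vehicle and 35.7, 24.4, 25.8, 30.5 and 39.8 CPM in JHU083. The vehicle samples lay close together above all JHU083 samples, and the log2 fold change was -0.54 ± 0.12 (SE, adjusted p = 0.00343). Cmpk2 fell by 0.60 (adjusted p = 0.00368), and the ratio of Rsad2 to Cmpk2 differed by 0.06 on the log2 scale between groups (exact permutation p = 0.587).

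The 3 IFIT genes, whose products bind viral RNA ends and block translation, were not called. Ifit1 (XLOC_017710, chromosome 19, 34640871 to 34650009) had 13.3, 12.2, 10.9, 13.6 and 11.98 CPM in vehicle and 10.7, 11.6, 7.53, 9.79 and 13.8 CPM in JHU083. JHU083 replicate 5 was the highest of the 10 samples and JHU083 replicate 3 the lowest, and the log2 fold change was -0.21 ± 0.14 (SE, adjusted p = 0.254). For Ifit2 the same 2 samples were the extremes, at 63.3 and 29.6 CPM, against 55.7 to 61.1 CPM in vehicle. Ifit2 and Ifit3 had log2 fold changes of -0.26 ± 0.14 and -0.31 ± 0.15 (SE, adjusted p = 0.174 and 0.111). Intervals of 2 SE for the IFIT genes run from -0.50 to 0.07 for Ifit1, from -0.55 to 0.03 for Ifit2 and from -0.61 to -0.02 for Ifit3, so decreases of the size seen in Rsad2 lie within the last 2 of them. Ifit3 has a near-identical copy, Ifit3b, and its counts are uncertain to that extent. Without JHU083 replicate 5 Ifit3 was called lower, at -0.42 (adjusted p = 0.0432).

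The PARP9 and DTX3L complex, an ADP-ribosylating ubiquitin ligase, and the antiviral macrodomain protein PARP14 sit together on chromosome 16, and none of the 3 genes was called. Parp9 (XLOC_014006, 35938470 to 35972605) had 61.5, 60.8, 54.5, 58.7 and 60.5 CPM in vehicle and 53.8, 64.8, 49.6, 57.3 and 61.6 CPM in JHU083. The samples were interleaved, with a log2 difference of -0.04 ± 0.08 (SE, adjusted p = 0.712). Parp14 and Dtx3l had -0.07 ± 0.15 and -0.15 ± 0.08 (SE, adjusted p = 0.736 and 0.154), and Dtx3l was called lower without JHU083 replicate 2 (adjusted p = 0.0401). Parp9 and Dtx3l overlap on opposite strands, and reads in the overlap cannot be told apart unless strand was used. Of the TRIM proteins, Trim21, the cytosolic antibody receptor, had 12.3, 10.7, 9.81, 8.69 and 10.8 CPM in vehicle and 7.64, 9.80, 9.17, 9.48 and 9.76 CPM in JHU083. Most samples of both groups lay between 8.69 and 10.8 CPM, and the log2 fold change was -0.19 ± 0.12 (SE, adjusted p = 0.223). Trim30a, a regulator of TLR signalling with similar neighbours, had -0.08 ± 0.07 (SE, adjusted p = 0.431).

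Of the 6 growth and nuclear body regulators 1 was higher, 1 lower and 4 were not called. Slfn5, a nuclear Schlafen protein (XLOC_005745, chromosome 11, 82951349 to 82964840), had 36.5, 42.2, 50.6, 39.8 and 40.2 CPM in vehicle and 61.2, 82.3, 38.7, 67.4 and 77.8 CPM in JHU083. In 4 JHU083 samples the level exceeded every vehicle sample and JHU083 replicate 3 lay among the vehicle samples. Slfn5 rose to 1.56 times its vehicle level, or by 0.65 ± 0.16 in log2 terms (SE, adjusted p = 0.00732). Slfn2, which keeps T cells and monocytes quiescent and lies 100272 bases away (XLOC_005747, chromosome 11, 83065112 to 83070678), had 275, 261, 234, 252 and 273 CPM in vehicle. In JHU083 it had 342, 243, 321, 316 and 292 CPM, of which 4 were above all vehicle samples. Its log2 fold change of 0.23 ± 0.09 (SE, adjusted p = 0.0601) was not called, and without JHU083 replicate 2, its low sample, it was 0.30 (adjusted p = 0.00699). Schlafen genes are similar to each other, so fragments may be split between them. Samd9l, a translation inhibitor that restricts poxviruses, had 13.0, 14.5, 16.4, 17.6 and 15.2 CPM in vehicle and 18.1, 16.3, 7.38, 16.4 and 25.8 CPM in JHU083. JHU083 held both the lowest and the highest sample, and the log2 fold change was 0.14 ± 0.23 (SE, adjusted p = 0.659), the largest error of the 40. Xaf1, a pro-apoptotic antagonist of XIAP (XLOC_005572, chromosome 11, 72301629 to 72313733), had 32.4, 24.4, 21.0, 29.2 and 29.8 CPM in vehicle and 21.4, 20.9, 27.1, 18.3 and 21.3 CPM in JHU083. Vehicle replicates 2 and 3 lay within the JHU083 range, and the log2 fold change was -0.33 ± 0.13 (SE, adjusted p = 0.0615). Without vehicle replicate 3 or JHU083 replicate 3 Xaf1 was called lower, at -0.41 in both (adjusted p = 0.0177 and 0.0122). Sp100, a nuclear body protein whose locus lists 1 further symbol, had -0.01 ± 0.07 (SE, adjusted p = 0.901). Phf11b was lower by 0.50 ± 0.14 (SE, adjusted p = 0.0109) and has near-identical relatives.

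Among the remaining genes, Isg20, a nuclease of single-stranded RNA, fell by 0.72 on the log2 scale with no overlap (adjusted p = 0.00131). Ifi35 (XLOC_006028, chromosome 11, 101448407 to 101458698), whose product forms a complex with NMI, had 54.0, 40.2, 35.3, 44.5 and 51.3 CPM in vehicle and 28.8, 24.3, 39.1, 29.2 and 26.5 CPM in JHU083. Vehicle replicate 3 and JHU083 replicate 3 were the 2 samples that crossed, and the log2 fold change was -0.61 ± 0.14 (SE, adjusted p = 0.00381). Ifi44 was lower by a small amount with no overlap, from 119 to 139 CPM in vehicle and from 83.1 to 115 CPM in JHU083 (log2 fold change -0.27 ± 0.09, SE, adjusted p = 0.0335), a call lost without vehicle replicate 3 or 4 or JHU083 replicate 4 (adjusted p = 0.0676 to 0.0736). Tor3a, an AAA ATPase of the endoplasmic reticulum, had 132, 120.0, 116, 119 and 134 CPM in vehicle and 132, 123, 130.2, 119 and 130.1 CPM in JHU083. Its values spanned a similar range in both groups, with a log2 difference of 0.03 ± 0.07 (SE, adjusted p = 0.761), or -0.050 when scaled to library size only.

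**Figure D3:**
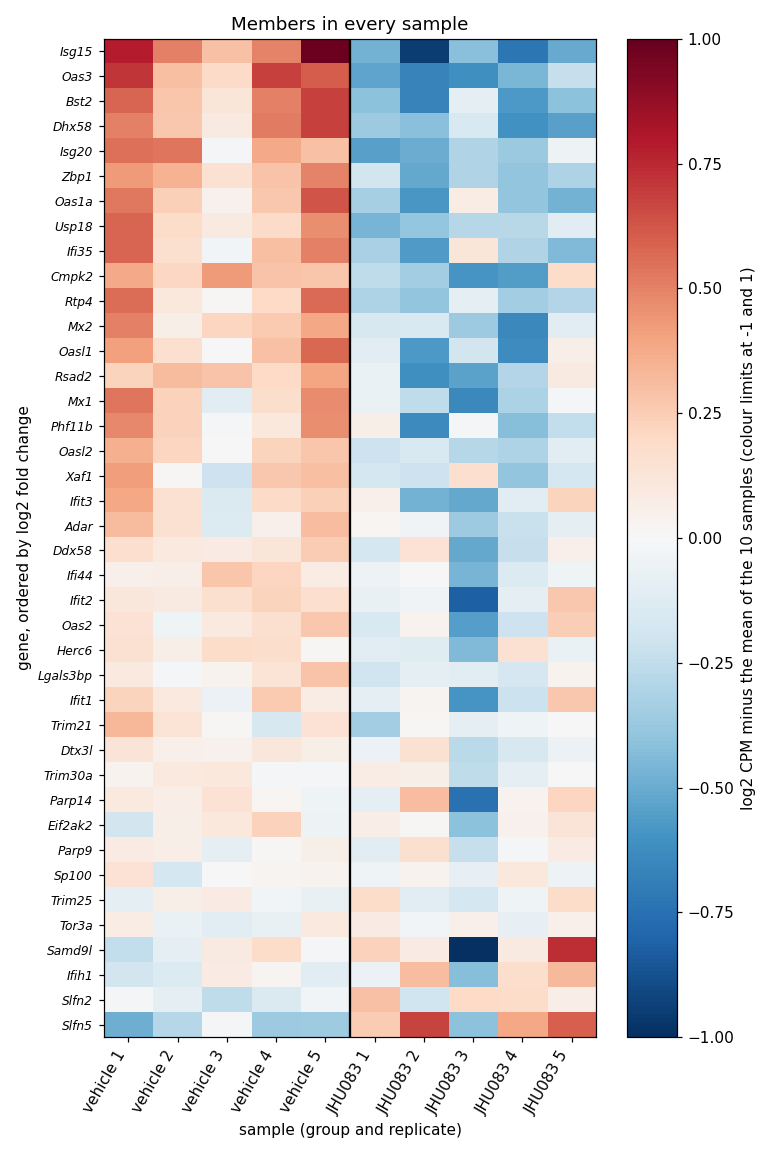
Log2 CPM of every gene in every sample minus the mean of the 10 samples (colour, limits at -1 and 1), with genes ordered by log2 fold change and the vehicle samples to the left of the line. Vehicle replicate 3 and JHU083 replicate 3 stand out within their groups, the first as pale among red cells at the top and the second as dark blue in the lower rows.

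The samples of a group differed in how they moved. Vehicle replicate 3 was the lowest of its group in 23 of the 40 genes, while vehicle replicates 1 and 5 were the highest in 16 and 12. JHU083 replicate 3 was the lowest of its group in 20 genes and the highest in 7, and JHU083 replicate 5 was the lowest in 0 and the highest in 17. Some of these deviations differed between shorter and longer transcripts. For JHU083 replicate 3, split at the median length of 3355 nt of the longest annotated transcript, its median deviation from its group was -0.33 (log2) over the 20 longer genes and 0.07 over the 20 shorter ones. The vehicle samples differed in the shorter genes instead, where replicates 1, 3 and 5 had median deviations of 0.18, -0.27 and 0.16, against 0.02, 0.00 and 0.01 in the longer ones. With JHU083 replicate 3 left out, 20 genes were lower and 2 were higher, the second being Ifih1, against 23.1% lower and 22.9% higher of all loci.

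Fold change was correlated with length and GC content across the 40 genes, and less so across all loci. Of the 20 shorter genes 15 were lower, with a median of -0.58, and of the 20 longer ones 5 were lower and 1 was higher, with a median of -0.12. Of all loci on the same sides of that length, 21.8% of the shorter were lower and 14.8% higher, and 15% of the longer were lower and 22.1% higher. The medians of all loci below and above the same length were -0.06 and 0.08. The Spearman rank correlation between log2 fold change and length was 0.58 over the 40 genes and 0.17 over 12190 loci. Between fold change and GC content it was -0.57 and -0.26. These describe genes that share the same libraries, and genes are not independent replicates. After a correction that removed each sample's smooth trend with GC content and length, added after seeing the data, 23 genes were lower and 2 higher, with a median of -0.34. All loci then gave 17.1% lower and 22.2% higher. Of the 20 lower genes 18 kept the call and Adar and Lgals3bp lost it, while Ddx58, Ifit2, Herc6, Dtx3l and Trim30a gained it and Slfn2 joined Slfn5 as higher. The rank correlation with length was then 0.46 over the 40 genes and 0.04 over all loci, and that with GC content was -0.29 and 0.02. Of the shorter genes 14 were then lower and 1 higher (18.7% and 20.7% of all such loci), and of the longer 9 and 1 (15.6% and 24% of all such loci). The shorter genes still had the lower median (-0.48 against -0.20). The part of transcript length in the differences between genes was not tested further.

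**Figure D4:**
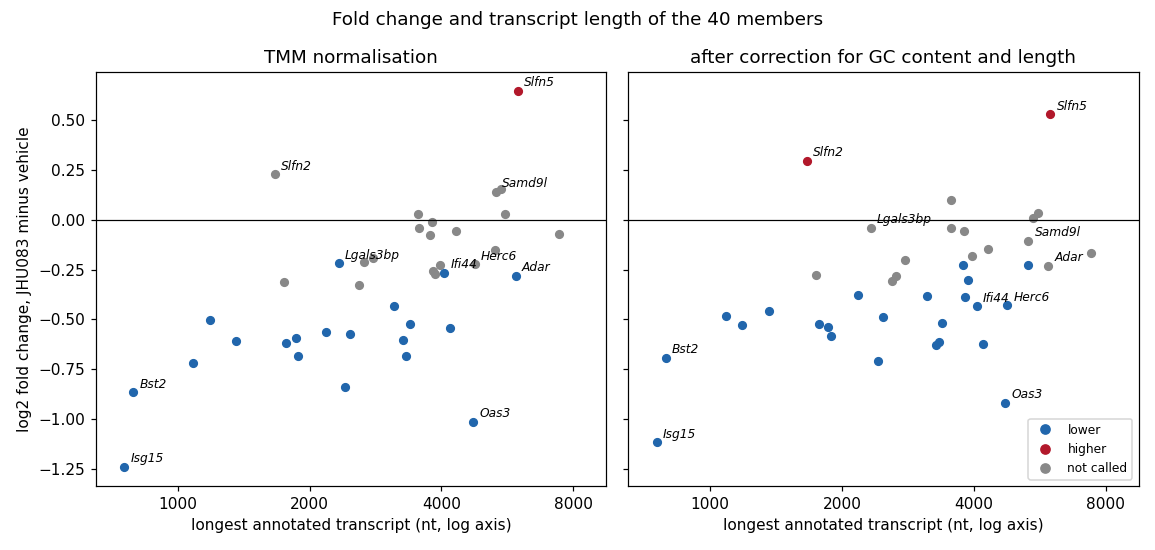
Log2 fold change (y axis) against the length of the longest annotated transcript (x axis, log scale) for the 40 genes, before (left) and after (right) the correction for GC content and length, coloured by call. Isg15 and Bst2, the shortest, lie low in both panels, and Oas3 does so among the longer genes.

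Genes of the pathway outside the list are read against the same shares of all loci, 18.3% lower and 18.4% higher. Of 14 loci examined here for receptors, JAKs, STATs and IRFs, 3 were lower, 3 higher and 8 not called, close to the share of all loci in each direction. Irf1, a transcription factor strongly induced by interferon gamma, averaged 182 ± 17.1 CPM in vehicle samples and 95.1 ± 14.0 CPM in the treated ones (SD, n = 5) and fell by 0.93 on the log2 scale (edgeR adjusted p = 1.58e-05). Irf7, the amplifier of type I interferon production, was lower at -0.94 (adjusted p = 8.85e-05) and Stat2, named after its value was seen, at -0.45 (adjusted p = 0.00155). Ifngr1, a chain of the interferon gamma receptor, averaged 102 ± 4.20 CPM in vehicle samples and 147 ± 12.6 CPM in the treated ones (SD, n = 5) and rose by 0.53 on the log2 scale (edgeR adjusted p = 0.000103). Jak1 rose by 0.40 (adjusted p = 0.00133), and the third higher locus lists Ifnar2, Il10rb and Gm21970, at 0.27 (adjusted p = 0.00375). The locus of Irf9, shared with Rnf31, had -0.12 ± 0.07 (SE, adjusted p = 0.227). None of the 13 interferon ligands examined could be tested: Ifnb1 had at most 6 fragments and Ifng at most 5 in any sample, and most of the others were at 0.

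**Figure D5:**
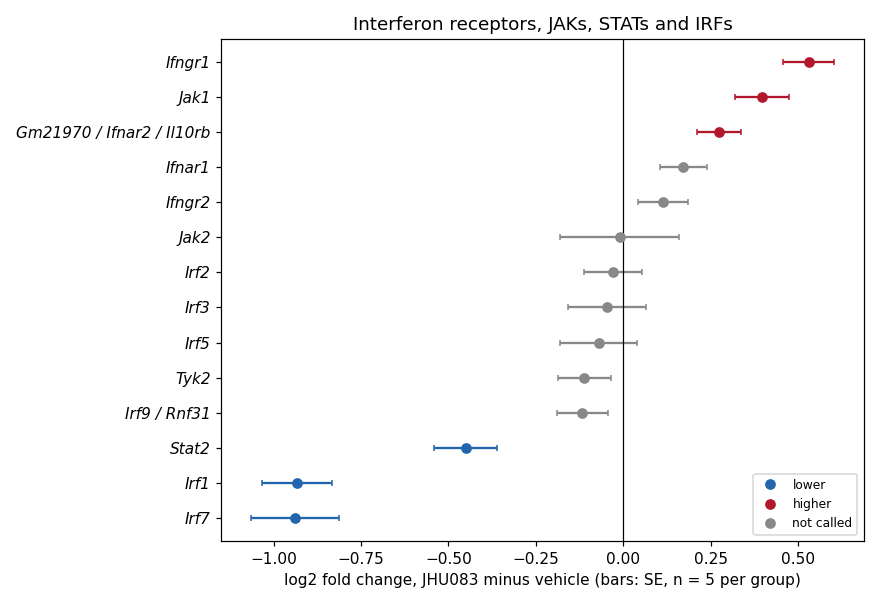
Log2 fold change with its standard error for the 14 loci of interferon receptors, JAKs, STATs and IRFs, with all symbols of a shared locus given. Irf7, Irf1 and Stat2 lie below 0 and Ifngr1, Jak1 and the locus of Ifnar2 above it.

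Of 11 loci for nucleic acid sensing adaptors and kinases, 2 were higher, 1 lower and 8 not called, again no more than the shares of all loci. With GC content and length corrected, 4 were higher, against 22.2% of all loci, and the other 7 were not called. Tlr7, the endosomal receptor for single-stranded RNA, averaged 38.8 ± 3.46 CPM in vehicle samples and 85.4 ± 12.1 CPM in the treated ones (SD, n = 5) and rose by 1.14 on the log2 scale (edgeR adjusted p = 4.79e-06), and the kinase gene Tbk1 rose by 0.41 (adjusted p = 0.0032). Tmem173, which encodes STING, was lower by 0.19 (adjusted p = 0.0427), a call lost after that correction (-0.11, adjusted p = 0.244). Among 8 loci for brakes on interferon signalling 4 were lower and 2 higher, and after the correction 2 and 1. The lower calls of Ptpn6 and of the locus that lists Trex1 with Atrip and Gm42641 were lost there (adjusted p = 0.172 and 0.137). Socs3 became the 1 higher gene (0.28, adjusted p = 0.00451, against 0.06 and 0.528 before). Socs1, a feedback inhibitor of JAKs, averaged 18.3 ± 2.31 CPM in vehicle samples and 7.17 ± 1.91 CPM in the treated ones (SD, n = 5) and fell by 1.35 on the log2 scale (edgeR adjusted p = 5.17e-05), and Samhd1 fell by 0.41 (adjusted p = 0.000886). Pias1 and Ptpn2 rose by 0.27 and 0.21 (adjusted p = 0.0207 and 0.0398), and both calls were lost after the correction (0.11 and 0.06, adjusted p = 0.306 and 0.532).

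Other interferon-induced genes were examined as lists. Of 12 loci of interferon-inducible GTPases 11 were lower and 1 was not called, with a median log2 fold change of -0.65. The locus of Igtp and Irgm2 fell by 0.92 (adjusted p = 1.77e-05) and Gbp2 by 1.07 on the log2 scale (adjusted p = 0.000123). Of 60 loci of other interferon-stimulated genes 27 were lower, 1 was higher and 32 were not called, with a median of -0.22. Ifitm1 and Ms4a4c fell, with log2 fold changes of -3.30 and -1.48 (adjusted p = 4.52e-07 and 4.96e-06), and the higher locus was that of Trim12c and Gm27995, at 0.49 (adjusted p = 0.00129). Of 7 interferon gamma-responsive chemokine, checkpoint and class II genes 4 were lower and 3 not called, and 2 of the 4, Cxcl9 and Cxcl10, are also counted among the 27 above. Nos2 and Cxcl10 fell, with log2 fold changes of -1.68 and -1.79 (adjusted p = 6.34e-06 and 2.78e-05). No test was made of whether these groups differ from the 40 genes.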

How the data were processed

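The labels' protocols describe poly(A) selection, random priming and an NEBNext Ultra library sequenced in pairs. The submitters' processing notes name bcl2fastq 2.17.1.14, FastQC 0.11.2, TopHat2 2.1.1 and GRCm38; the program that counted fragments, its annotation and its use of strand are not given in the sources used here. One deposited column holds raw counts per the file headers, but its values are not whole and were classed with expected counts: in each sample 99.8% to 99.96% of positive values are whole multiples (tolerance 0.05) of a step between 0.888 and 1.17. Values were divided by the step and treated as whole fragments, an inference from the values. The other deposited column is FPKM, as judged from the values: the authors' scaled count over FPKM varied by a median of 2.91% between samples over 6611 loci. FPKM was used only to order genes by level.

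Of 46957 loci, 1 has no symbol and held at most 0.00209% of fragments, and 1060 list more than 1 symbol. Loci were filtered with filterByExpr, scaled with TMM, and tested without covariates by the quasi-likelihood method of edgeR 4.0.16 (R 4.3.3), with Benjamini-Hochberg adjustment over all loci at 0.05. All adjusted p-values of single genes come from this test. The SE is the absolute log2 fold change over the square root of F, and a prior count of 2 enters log2 CPM. The test was checked on simulated data. Summed marker CPM and log2 ratios of gene pairs were compared by exact two-sided permutation. Alternatives were DESeq2 1.42.0, other scalings and filters, the deposited values rounded, the status at 2 loci listed at 0, a replicate block, leaving out each sample, and removal of trends with GC content and length (mgcv 1.9.3), the last added after seeing the data. Gene positions and lengths are those of GENCODE M21. Promoters came from RefSeq, and 10 of the genes had no window.

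The members, the role, pathway and marker lists and the tests were chosen with earlier results of these data known. Sample values are given by rule for the 3 genes with the lowest adjusted p in each direction, the first gene of each role list, and every gene whose direction differs from most. Some genes of these pathways were left out of the lists and are not reported here. Of each pathway list the 2 called loci with the lowest adjusted p in each direction are named.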

Additional observations from a re-analysis of the deposited data

Results flagged for a closer look

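Each gene's 5 log2 CPM values were examined in each group, 80 groups in all, for a sample whose gap to its nearest neighbour exceeded 0.71 of the group's range. Chance alone gives such a gap in about 5% of groups, and 2 were found. Eif2ak2, the gene of the kinase PKR, was 5.49 log2 CPM in JHU083 replicate 3 against 5.91 to 6.03 in the other JHU083 samples, a gap of 0.788 of the range. Trim21 was 2.96 log2 CPM in JHU083 replicate 1 against 3.22 to 3.31 in the others, a gap of 0.733 of the range. Neither gene was called in the comparison of the groups, and no cause was tested.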

How the results depend on the processing

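Of 920 comparisons of a gene with its reported value over 23 alternatives, 829 kept direction and call, 46 lost the call, 26 gained it and 19 changed sign, with 0 sign changes among called genes. With all or 9 samples 18 of the 21 called genes kept the call throughout. The exceptions were Adar, lost in 11 alternatives, Lgals3bp in 9 and Ifi44 in 4. DESeq2 gave 20 lower and 1 higher, beside 2522 lower and 2380 higher of 25544 loci.

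Higher genes numbered 2 with the status covariate, 2 with GC content and length corrected and 2 with that correction and the replicate block. Of all loci, 2082 of 12439, 2781 of 12500 and 2318 of 12500 were higher in these 3 fits. Leaving out 1 sample gave 1 to 2 higher (2 without JHU083 replicate 2 or 3), 17 to 21 lower and medians from -0.33 to -0.22. Over all loci, 12616 to 12699 in number, those fits gave 1821 to 2899 higher and 1900 to 2930 lower. Among samples with the 2 loci listed at 0, 9 were lower and 0 higher (1 at an unadjusted p under 0.05 by edgeR) with a median of -0.41. Of all loci 4.61% were lower and 4.18% higher there. Among the other samples 10 genes were lower, against 11.9% of all loci, and both sets have fewer samples.

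Same-numbered samples did not pair: the correlations of their deviations over 1000 loci were -0.61 to -0.18, and 0 of 5 correlated best with their own number. With the replicate block 18 genes were lower and 1 higher, with a median of -0.29. Over all 12500 loci that fit gave 1757 lower and 1612 higher.

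Uncalled genes near 0 changed sign, for which the cause was not tested. With the 2 loci listed at 0, Ifih1 was -0.16 and Samd9l -0.29; with them above 0, Eif2ak2 was 0.085, Parp9 0.070, Parp14 0.062 and Tor3a -0.012. Scaled to library size, Trim25 was -0.052 and Tor3a -0.050. Samd9l was -0.11 after the GC and length correction and -0.16 with the replicate block added, where Ifih1 was -0.0010. Leaving out 1 sample gave -0.11 to 0.028 for Eif2ak2, -0.017 to 0.075 for Trim25, -0.090 to 0.0073 for Parp9, -0.16 to 0.068 for Parp14, -0.060 to 0.021 for Sp100 and -0.066 to 0.33 for Samd9l. The effect of depth on these values was not tested.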
